A study of Homo sapiens with 4 samples.

Results

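The integrated stress response is described here through 10 of its core and feedback genes, ATF4, ATF3, DDIT3, CEBPB, PPP1R15A, PPP1R15B, TRIB3, NUPR1, GDF15 and CHAC1, in human liver cancer cells exposed to clofazimine. The genes were found by their GENCODE 29 symbols, each of which matched 1 of the 58735 Ensembl identifiers in the deposited count table, and all 10 passed the filter on low counts that left 16388 genes. They were selected on the clofazimine against untreated differences of these same libraries. Those differences are therefore a description, and nothing is read from whether they pass a test. The cells carry the label MHCC97-H, a hepatocellular carcinoma line of wild-type genotype. Poly(A) RNA was sequenced from 2 libraries of cells kept with the riminophenazine antibiotic clofazimine for 16 h and from 2 libraries of the same line with no treatment, also labelled 16 h. The dose reads 40 μM in the sample labels and 30 μM in the series text, and no vehicle is named for the untreated cells. Nothing says that replicates were separate cultures, so errors and p-values reflect no more than the scatter of these libraries, which may be technical.

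The pathway works through a brake on translation. Kinases that sense amino acid shortage, unfolded protein, double-stranded RNA or mitochondrial and heme stress phosphorylate the alpha subunit of eIF2, which lowers bulk protein synthesis while favouring translation of the ATF4 mRNA. ATF4 is a basic leucine zipper (bZIP) transcription factor that binds DNA as a dimer, often with a C/EBP partner, and raises genes of amino acid supply together with further transcription factors such as ATF3 and DDIT3. Feedback comes from PPP1R15A and PPP1R15B, which bring protein phosphatase 1 to eIF2 alpha, and from TRIB3, a pseudokinase that restrains ATF4. In liver cells the same response is known for inducing the secreted factors GDF15 and FGF21.

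The libraries held 13543437 and 16318759 counts in the clofazimine group and 16429147 and 16860578 counts in the untreated group. Levels are given as CPM, counts scaled to a library size that was adjusted by the trimmed mean of M values (TMM), per 1000000 counts. They are shares of a library, so less RNA per cell and fewer cells cannot be told apart from them. Of 12 markers of hepatocytes and liver cancer, ALB and AFP were at 0 counts in all 4 libraries, as were APOB, TTR and FGB, where a floor of 3 counts is 0.196 to 0.233 CPM in the clofazimine libraries and 0.169 to 0.171 CPM in the untreated libraries. Only 4 of the 12 passed the filter, with 1 higher (0 without either untreated replicate or clofazimine replicate 2), 2 lower and 1 not called, so most hepatocyte identity genes were not detectable here. The keratin KRT8, the gene not called, was at 1093 and 1239 CPM in clofazimine against 1106 and 1272 CPM in untreated libraries. SERPINA1 fell, at 1.32 and 1.38 CPM in clofazimine against 5.13 and 6.85 CPM in untreated libraries. HNF4A also fell, at 0.0777 and 0.590 CPM in clofazimine against 2.80 and 3.68 CPM in untreated libraries. KRT18, whose exons overlap KRT8 on the opposite strand, was at a log2 fold change of 0.36. Of 12 markers of other cell types, 5 were tested, with 1 higher and 4 lower, and PTPRC, LYZ and HBB were at 0. The summed level of the list was 129 to 151 CPM in clofazimine against 133 to 141 CPM in untreated libraries. Most of that sum was COL1A1, the gene that rose, at 142 and 120 CPM in clofazimine against 96.30 and 96.29 CPM in untreated libraries. The 4 that fell had log2 fold changes of -2.64 to -1.43, so the similar sums hide opposite changes. All 5 noncoding transcripts listed as signs of RNA quality were higher, where 29.5% of all genes were. Their summed level was 2922 to 3100 CPM in clofazimine against 1644 to 1724 CPM in untreated libraries. The list includes GAS5 and SNHG1, at log2 fold changes of 1.98 and 1.63, and is not specific to RNA quality. Mitochondrial genes took 2.06% and 2.13% of counts in clofazimine against 3.69% and 3.75% in untreated libraries. The part of these differences in the results below was not tested.

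The untreated libraries differed from each other in most of these very genes. All 10 were higher in untreated replicate 1 than in untreated replicate 2, where 50.5% of the 16388 genes were, and 7 of the 10 were at least 1.2 times higher, where 14.3% of genes were. The ratio of untreated replicate 1 to untreated replicate 2 ran from 1.00 for PPP1R15B to 1.999 for NUPR1, with 1.80 for CHAC1, 1.73 for TRIB3 and 1.606 for DDIT3. The 1.2 limit was chosen after the values were seen. Among the 9972 genes with an untreated mean of at least 10 CPM, the 5th and 95th percentiles of that ratio were 0.827 and 1.22. The clofazimine libraries were closer, with ratios of replicate 2 to replicate 1 from 0.891 for ATF3 to 1.23 for NUPR1, and 2 of the 10 genes at 1.2 or above, where 19.8% of genes were.

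**Figure D1:**
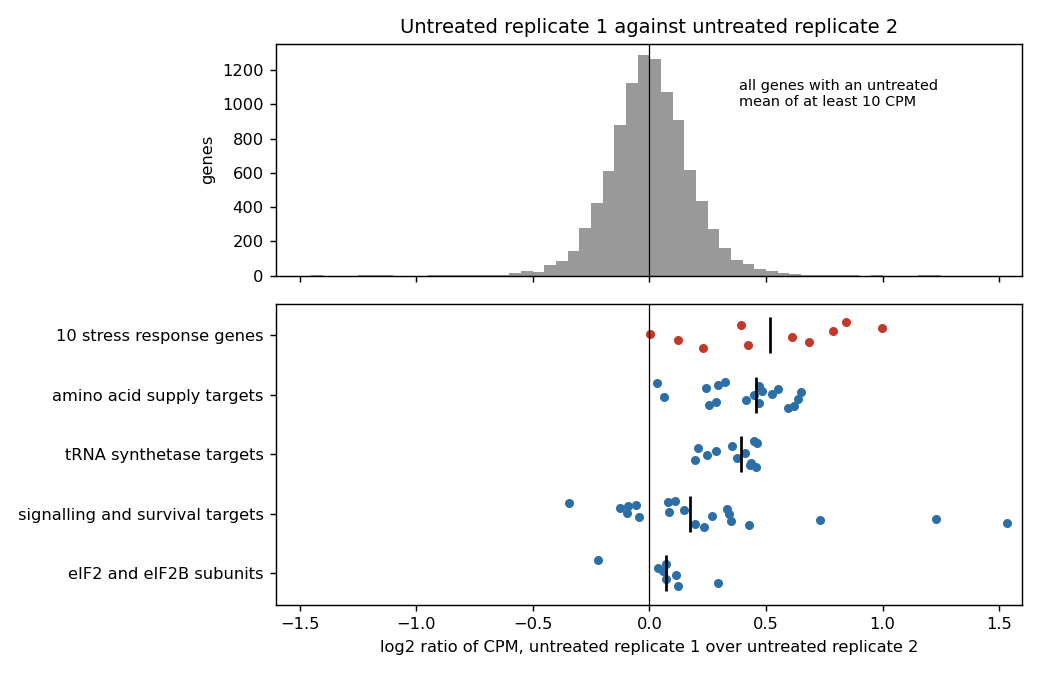
Log2 ratio of CPM in untreated replicate 1 over untreated replicate 2: the histogram counts all 9972 genes with an untreated mean of at least 10 CPM, and points below are single genes of each list with a black bar at the median. The stress response genes and the amino acid and tRNA synthetase lists of ATF4 targets lie to the right of 0, with PPP1R15B almost on it. The histogram is centred on 0.

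The difference was also seen in targets of ATF4. Of 18 tested genes of amino acid supply, 18 were higher in untreated replicate 1 and 14 at least 1.2 times so, at a median ratio of 1.37. Of 12 targets in the tRNA synthetase list, which also holds the tRNA export factor XPOT, 12 were higher and 9 at least 1.2 times so, at a median ratio of 1.31. Of 20 signalling and survival targets, 14 were higher and 8 at least 1.2 times so, at a median of 1.13, with FGF21 at 2.90. INHBE, a liver-secreted activin subunit named after its value was seen, had a ratio of 2.34. For each of the 10 genes the fold change is therefore also given without each untreated library.

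Of the 10 genes, 9 were higher in the clofazimine libraries, and CHAC1 was lower. GDF15 and ATF3 had the largest increases among the 10, at 45.0-fold and 37.8-fold. In 9 genes both clofazimine libraries exceeded both untreated libraries, which held for 39.2% of all genes, and in CHAC1 both were below, which held for 41.6%. The 9 and the 1 also passed an adjusted p of 0.05 in edgeR's quasi-likelihood test, as did 29.5% of all genes upward and 30.4% downward, 59.9% in either direction, and nothing is read from these counts because the contrast was used to propose the genes. Increases of at least 2-fold were found in 8 of the 10, against 10.9% of all genes, and of at least 4-fold in 6, against 3.25%. The median log2 fold change was 2.38 over the 10 genes and -0.03 over all genes tested. Together the 10 genes took 0.650% (95% Wilson interval 0.646 to 0.654) and 0.714% (0.709 to 0.718) of all counts in the clofazimine libraries, against 0.148% (0.147 to 0.150) and 0.115% (0.113 to 0.116) in the untreated libraries. These intervals cover counting error only, and the labels name no molecular identifiers.

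**Figure D2:**
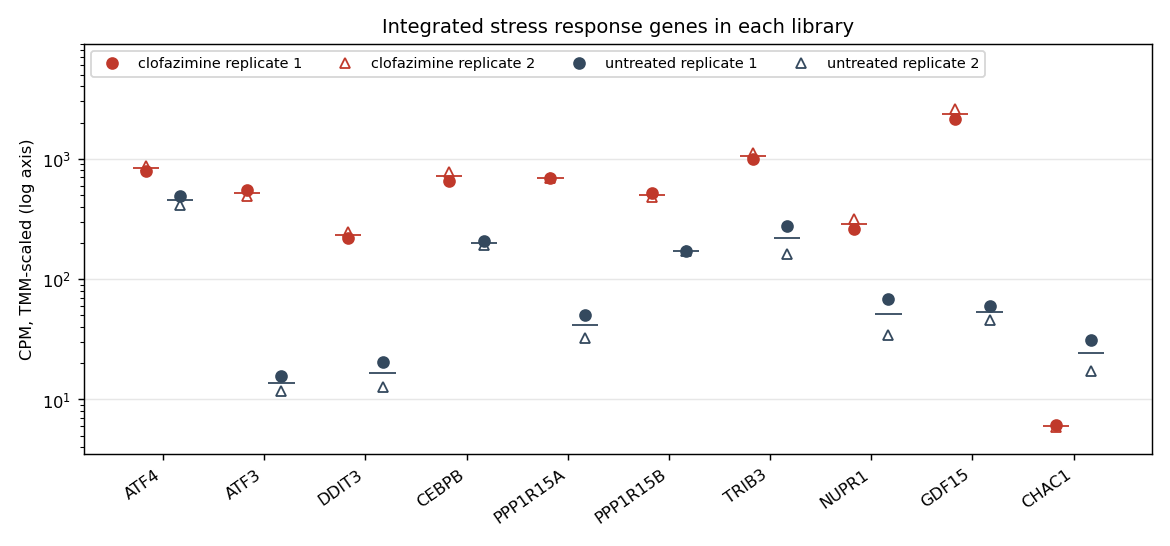
TMM-scaled CPM of the 10 genes on a log axis, with clofazimine libraries in red left of untreated libraries in dark blue, filled circles for replicate 1, open triangles for replicate 2 and a short line at each mean. The groups are apart for every gene, CHAC1 alone runs downward, and the untreated circles lie above the untreated triangles in the genes with the widest spread.

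ATF4 (ENSG00000128272, chromosome 22, 39519695 to 39522685, GRCh38), the central transcription factor of the response, changed least. It had 796.5 and 877 CPM in the clofazimine libraries, against 488 and 416 CPM in the untreated libraries. The groups did not overlap, with the lower clofazimine library 1.63 times the higher untreated library. The log2 fold change was 0.89 ± 0.14 (SE, from the edgeR fit), a 1.85-fold difference. It placed ATF4 above 86.9% of the genes tested, the lowest place among the 9 genes that were higher. The value was 0.99 without untreated replicate 1, 0.76 without untreated replicate 2 and 0.72 on library totals without TMM.

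ATF3 (ENSG00000162772, chromosome 1, 212565334 to 212620777) and DDIT3 (ENSG00000175197, chromosome 12, 57516588 to 57521737) encode bZIP factors that ATF4 induces. ATF3 is known mainly as a repressor that follows many kinds of stress, and the DDIT3 product CHOP is known for steering prolonged stress toward cell death. ATF3 had 546 and 486 CPM in the clofazimine libraries, against 15.6 and 11.7 CPM in the untreated libraries, from 206 to 274 untreated counts. Its log2 fold change of 5.24 ± 0.17 (SE) ranked 20 of 16388 from the top, and it was 5.45 and 5.03 without untreated replicate 1 and replicate 2. DDIT3 had 219 and 248 CPM in the clofazimine libraries, against 20.4 and 12.7 CPM in the untreated libraries. The log2 fold change of DDIT3 was 3.82 ± 0.18, with 4.18 and 3.504 without untreated replicate 1 and replicate 2. For both genes the lower clofazimine library was more than 10 times the higher untreated library, at 31.1 times for ATF3 and 10.8 times for DDIT3.

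MARS and MBD6 run antisense to DDIT3 and share exonic bases with it, and whether counting used strand is not given in the sources used here. AC022506.1, on the same strand as DDIT3, also shares exonic bases with it and was at 0 CPM in every library. MARS, the cytosolic methionyl-tRNA synthetase, had 507.5 and 501 CPM in clofazimine against 339 and 255 CPM in untreated libraries, a log2 fold change of 0.76 ± 0.14 (SE). MBD6 was at 1.08 ± 0.14. Both changes were smaller than that of DDIT3, and the share of reads that could have moved between these genes was not tested.

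CEBPB (ENSG00000172216, chromosome 20, 50190734 to 50192689) encodes C/EBP beta, a bZIP partner of ATF4 with a long-known role in liver acute-phase gene expression. It had 660.0 and 783 CPM in the clofazimine libraries, against 209 and 192 CPM in the untreated libraries. Its log2 fold change was 1.85 ± 0.14 (SE), with 1.89 and 1.77 without untreated replicate 1 and replicate 2. The untreated libraries were within 1.09 times of each other, among the closest of the set.

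The 2 regulatory subunits that direct protein phosphatase 1 to eIF2 alpha diverged in size. PPP1R15A (ENSG00000087074, chromosome 19, 48872392 to 48876057), whose product GADD34 is the stress-inducible subunit, had 692 and 691 CPM in the clofazimine libraries, against 49.98 and 32.7 CPM in the untreated libraries. PPP1R15B (ENSG00000158615, chromosome 1, 204403387 to 204411791), whose product CReP is known as the constitutive subunit, had 517 and 486 CPM in the clofazimine libraries, against 170.4 and 170.2 CPM in the untreated libraries. Both were higher with clofazimine and neither overlapped, at log2 fold changes of 4.07 ± 0.18 (SE) for PPP1R15A and 1.56 ± 0.13 for PPP1R15B. Without untreated replicate 1 the values were 4.38 and 1.54, and without untreated replicate 2 they were 3.78 and 1.54. On CPM per kb of exon, PPP1R15A stood at 2.26 and 2.40 times PPP1R15B in the clofazimine libraries, against 0.496 and 0.324 times in the untreated libraries, so the order of the subunits turned over.

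Their promoters are shown because the subunits share a task and differ in response. RefSeq sequence upstream of each start (GRCh38.p14, before any annotated exon) is given in the direction of transcription, with capitals marking a cAMP response element or a C/EBP-ATF composite element. PPP1R15A is chr19:48872171-48872391 on the plus strand, 221 bases at 59.3% GC, and PPP1R15B is chr1:204411818-204412067 on the minus strand, 250 bases at 70.8% GC.
PPP1R15A: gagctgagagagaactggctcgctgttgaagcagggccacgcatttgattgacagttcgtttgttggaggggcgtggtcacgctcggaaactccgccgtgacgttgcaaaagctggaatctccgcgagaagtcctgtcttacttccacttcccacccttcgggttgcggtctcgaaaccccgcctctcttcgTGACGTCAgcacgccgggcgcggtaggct
PPP1R15B: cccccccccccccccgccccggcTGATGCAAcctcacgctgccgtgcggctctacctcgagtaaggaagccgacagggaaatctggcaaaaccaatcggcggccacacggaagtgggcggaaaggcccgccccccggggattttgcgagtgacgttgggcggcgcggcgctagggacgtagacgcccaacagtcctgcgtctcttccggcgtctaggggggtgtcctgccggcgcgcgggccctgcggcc
The inducible subunit carries a full cAMP response element, TGACGTCA, 58 bases before its RefSeq start, and the constitutive subunit a C/EBP-ATF composite element, TGATGCAA, 227 bases before its own, within a transcript of the antisense gene AL606489.1. A match is a description of the letters and not a bound site.

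TRIB3 (ENSG00000101255, chromosome 20, 362835 to 397559), the pseudokinase that binds ATF4 and CHOP and dampens their activity, had 994 and 1128 CPM in the clofazimine libraries, against 277 and 160.5 CPM in the untreated libraries. The log2 fold change was 2.28 ± 0.20 (SE), and it was 2.71 without untreated replicate 1 and 1.92 without untreated replicate 2. NUPR1 (ENSG00000176046, chromosome 16, 28532708 to 28539174), a small chromatin-associated protein induced by many stresses, had 260.1 and 319 CPM in the clofazimine libraries, against 69.0 and 34.5 CPM in the untreated libraries. Its log2 fold change of 2.48 ± 0.22 became 3.05 and 2.05 without untreated replicate 1 and replicate 2, the widest range of the set on that choice. In both genes the groups stayed apart, with the lower clofazimine library 3.59 times the higher untreated library for TRIB3 and 3.77 times for NUPR1.

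GDF15 (ENSG00000130513, chromosome 19, 18374731 to 18389176), a secreted member of the TGF-beta superfamily that acts on appetite through a brainstem receptor, was the most abundant of the 10 after clofazimine. It had 2151 and 2608 CPM in the clofazimine libraries, against 60.1 and 45.7 CPM in the untreated libraries. Its log2 fold change of 5.49 ± 0.19 (SE) ranked 15 of 16388 from the top and was 5.68 and 5.29 without untreated replicate 1 and replicate 2. GDF15 supplied 31.4% and 34.2% of the counts of the 10 genes in the clofazimine libraries, against 4.32% and 4.18% in the untreated libraries.

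CHAC1 (ENSG00000128965, chromosome 15, 40952962 to 40956519) encodes a gamma-glutamylcyclotransferase that breaks down glutathione, and it is textbook ATF4 and CHOP output. It had 6.14 and 5.90 CPM in the clofazimine libraries, from 79 and 90 counts, against 31.2 and 17.4 CPM in the untreated libraries, from 547 and 307 counts. The lower untreated library was still 2.83 times the higher clofazimine library. The log2 fold change was -2.01 ± 0.24 (SE), a 4.03-fold lower level, and it lay at -1.55 without untreated replicate 1 and at -2.39 without untreated replicate 2. With DESeq2, limma-voom, other scalings, other filters, a replicate term or an offset for length and GC content of exons it stayed between -2.18 and -1.95. Between the untreated libraries CHAC1 was higher in replicate 1, as were the other 9 genes, though PPP1R15B only at a ratio of 1.001.

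**Figure D3:**
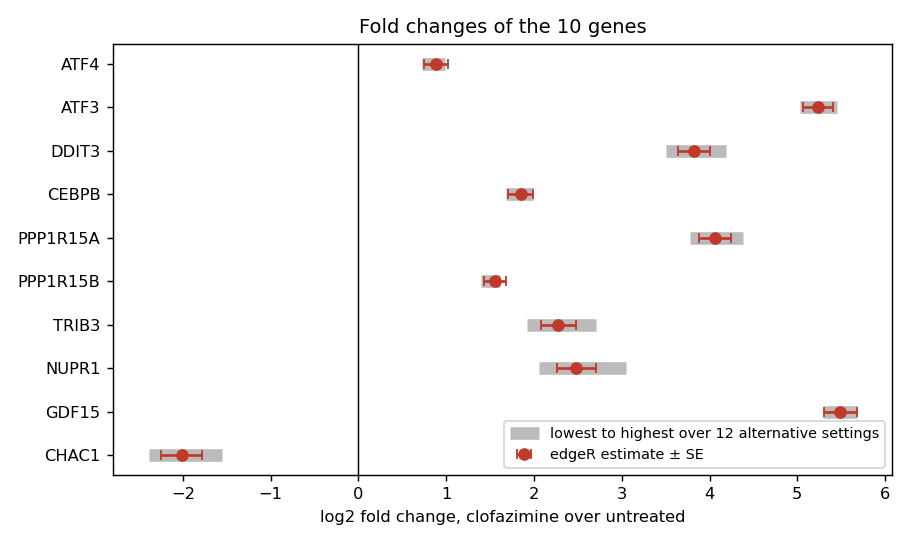
Log2 fold change of clofazimine over untreated for the 10 genes, with the edgeR estimate and its SE in red and a grey bar from the lowest to the highest value over 12 alternative settings. ATF3 and GDF15 are above 5, ATF4 is below 1 and CHAC1 is at -2.01, and no grey bar reaches 0.

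Short RefSeq stretches around motif matches are shown for the genes whose windows held one, since they place CHAC1 beside genes that moved the other way. A set of 4 motifs was searched on both strands in windows from 250 bases before to 50 after each start: the C/EBP-ATF composite element TGATGNAA, the cAMP response element TGACGTCA, the AP-1 site TGACTCA and the C/EBP palindrome TTGCGCAA, none of which contains another. Of the 10 genes, 9 had such a window, 15 windows in all, and NUPR1 is named only. Capitals mark the match, each line reads in the gene's direction, and on CHAC1 the element lies in reverse.
CHAC1: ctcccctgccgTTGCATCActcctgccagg
PPP1R15B: cccgccccggcTGATGCAAcctcacgctgc
ATF3: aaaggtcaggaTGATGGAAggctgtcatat
PPP1R15A: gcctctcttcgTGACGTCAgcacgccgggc
DDIT3: gcgcgcgcgcaTGACTCAcccacctcctc
These are chr15:40953251-40953280 (plus strand), chr1:204412026-204412055 (minus), chr1:212565205-212565234 (plus), chr19:48872352-48872381 (plus) and chr12:57520738-57520766 (minus), in GRCh38.p14. The CHAC1 match is 209 bases before the RefSeq start and falls in an exon of a longer annotated CHAC1 transcript, while the ATF3 match is 191 bases before a RefSeq start and in no annotated transcript. The DDIT3 match is 238 bases before one RefSeq start and 241 before another, inside annotated DDIT3 and MBD6 transcripts but in no exon.

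The composite element was found in 3.62% of 35116 windows of this length, the cAMP response element in 1.85%, the AP-1 site in 4.95% and the palindrome in 0.151%. CHAC1, which was lower with clofazimine, and PPP1R15B, which was higher, both hold the letters TGATGCAA on one strand or the other. GDF15, with the largest log2 fold change of the set, had no match to any of the 4 motifs in its window, nor had ATF4, TRIB3 or CEBPB.

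Levels between genes were set side by side as CPM per kb of annotated exon. In the clofazimine libraries the order was GDF15 at a mean of 1140.2, CEBPB at 369, ATF4 at 333, TRIB3 at 309, PPP1R15A at 224, DDIT3 at 179, ATF3 at 128, PPP1R15B at 95.9, NUPR1 at 51.0 and CHAC1 at 2.93 CPM per kb. The libraries of ATF4 overlapped those of CEBPB and those of TRIB3, while CEBPB and TRIB3 did not overlap, and both libraries gave the order CEBPB, ATF4, TRIB3. In the untreated libraries the order was ATF4 at 179.9, CEBPB at 103, TRIB3 at 63.7, PPP1R15B at 32.6, GDF15 at 25.4, PPP1R15A at 13.4, DDIT3 at 12.6, CHAC1 at 11.8, NUPR1 at 9.13 and ATF3 at 3.38 CPM per kb, with PPP1R15A, DDIT3, CHAC1 and NUPR1 overlapping. Exon length decides part of this order. Per kb of the shortest coding transcript, ATF3 (482 bases) stood at rank 2 in place of 7 in the clofazimine libraries and NUPR1 (550 bases) at rank 5 in place of 9, while CEBPB stood at rank 6 in place of 2, with GDF15 first and CHAC1 last either way.

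Upstream of ATF4, mRNAs of the 4 eIF2 kinases were not higher. EIF2AK3, the kinase PERK that senses unfolded protein in the endoplasmic reticulum, had 22.7 and 21.6 CPM in clofazimine against 20.9 and 21.9 CPM in untreated libraries (log2 fold change 0.05 ± 0.14, SE, edgeR adjusted p 0.79). That value was -0.12 on library totals and -0.0021 without untreated replicate 1, so it has no settled direction. EIF2AK1, the heme-regulated kinase HRI, was at -0.13 ± 0.12 (adjusted p 0.36) and EIF2AK2, the double-stranded RNA sensor PKR, at -0.13 ± 0.11 (adjusted p 0.34). Both passed the threshold on library totals, at -0.30 each (adjusted p 0.043 and 0.034). EIF2AK4, the amino acid sensor GCN2, fell to 56.6 and 49.7 CPM in clofazimine libraries, against 80.3 and 87.2 CPM in untreated libraries (-0.66 ± 0.12, edgeR adjusted p 2.2e-04), a value of -0.29 with the exon length and GC offset (adjusted p 0.018). These are mRNA levels and say nothing of kinase activity or eIF2 phosphorylation, which were not measured. Some list genes named from here on have exons that overlap a gene on the opposite strand. They are EIF2AK1, EIF2AK2, EIF2AK3, PRKRA, EIF2B3, PPP1CA, CUL1, SKP1, GARS, BBC3, BMF, GCLC, PCSK6, ALDH1L2, VLDLR and GGACT. Exons of NCK1, ASNS, BBC3, GCLC, GGACT, GGT1, PCSK6 and SKP1 overlap a gene on the same strand. The counts of all these genes are uncertain to that extent.

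Across the list of 11 kinases and sensors, 3 rose, 4 fell and 4 were not called, at a median log2 fold change of -0.13, where 29.5% of all genes rose and 30.4% fell at a median of -0.03 (4828 and 4983 genes, against 3732 and 6245 on library totals without TMM). GCN1, the activator of GCN2, fell by 0.69 (SE 0.16, edgeR adjusted p 0.0012), a value of -0.44 without clofazimine replicate 2 and a call that ended with the exon length and GC correction (-0.24), and IMPACT, an inhibitor of GCN2, fell by 0.79 (adjusted p 2.5e-04). NCK1, an adaptor known to act with PP1 on eIF2, rose to 108 and 128 CPM in clofazimine libraries, against 47.1 and 43.4 CPM in untreated libraries, and PRKRA, an activator of PKR, rose by 0.92 on the log2 scale (edgeR adjusted p 1.6e-07 and 1.6e-05). With the exon length and GC offset NCK1 was at 0.83 and PRKRA at 0.54. The shares of all genes given here apply to every list below. The lists were chosen with earlier results of these data known, so their counts are a description.

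Of 8 subunits of eIF2 and its exchange factor eIF2B, 6 rose and none fell at a median of 0.39, where 29.5% of all genes rose and 30.4% fell. The 6 rises were led by EIF2S2, which encodes eIF2 beta, at 1.16 ± 0.14 (SE, edgeR adjusted p 2.6e-06) and EIF2B3 at 0.60 ± 0.13 (adjusted p 7.9e-04). That count was 3 without untreated replicate 1, 2 without untreated replicate 2 and 3 on library totals. Among 3 catalytic subunits of PP1 and 2 actins, actin being a cofactor of the PPP1R15 complexes, 3 rose and 1 fell. ACTG1 rose by 1.11 on the log2 scale, while PPP1CC was at 0.47 ± 0.13 and PPP1CA at -0.45 ± 0.12 (edgeR adjusted p 1.0e-05, 0.0047 and 0.0052). PPP1CC was at 0.31 on library totals. The PPP1CC call ended without untreated replicate 1 (0.49) or replicate 2 (0.42), and in each case so did the call of another gene that rose. The PPP1CA call ended without untreated replicate 2 (-0.41).

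Other bZIP factors moved mostly upward, with 15 of 21 tested genes higher, 1 lower and 5 not called, at a median log2 fold change of 0.95. Over all genes, 29.5% were higher and 30.4% lower. BATF was at 0 in every library. JUN, a subunit of AP-1, rose to 553 and 522 CPM in clofazimine libraries, against 82.0 and 75.6 CPM in untreated libraries (2.77 ± 0.13, SE, edgeR adjusted p 1.1e-10). FOSB rose to 26.4 and 24.3 CPM in clofazimine, against 3.54 and 3.85 CPM in untreated libraries (adjusted p 3.2e-09). CEBPG, a dimer partner of ATF4 named after its values were seen, was at 1.99 (edgeR adjusted p 9.3e-09). The gene that fell, also named afterwards, was CEBPE, at 0.0777 and 0.197 CPM in clofazimine against 3.02 and 3.68 CPM in untreated libraries.

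The paralogues of TRIB3 split. TRIB1 rose to 109 and 97.9 CPM in clofazimine libraries, against 42.8 and 40.02 CPM in untreated libraries (log2 fold change 1.32 ± 0.12, SE, edgeR adjusted p 1.6e-07). TRIB2 fell to 2.41 and 1.97 CPM in clofazimine libraries, against 6.05 and 9.0004 CPM in untreated libraries (-1.79 ± 0.28, edgeR adjusted p 5.3e-05). In their list with 6 genes of ATF4 protein turnover, 2 of 8 rose and 6 fell at a median of -0.83, against 29.5% and 30.4% of all genes. EGLN3, a prolyl hydroxylase reported to act on ATF4, fell to 15.7 and 14.6 CPM in clofazimine libraries, against 65.4 and 88.8 CPM in untreated libraries. CUL1, the scaffold of the ubiquitin ligase that takes up ATF4, fell by 1.25 on the log2 scale and its adaptor SKP1 was at 0.42 ± 0.13 (edgeR adjusted p 4.2e-09, 2.4e-07 and 0.0086 for EGLN3, CUL1 and SKP1). The SKP1 call ended on library totals (0.25) and without untreated replicate 1 (0.40) or replicate 2 (0.41), which left 1 rise.

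Targets of ATF4 outside the 10 genes were described by role. Of 50 tested genes in 3 lists, 32 rose and 4 fell, at a median log2 fold change of 0.55. Among all genes 29.5% rose and 30.4% fell, at a median of -0.03. The tRNA synthetase list, which also holds the tRNA export factor XPOT, had 11 of 12 genes higher and none lower, at a median of 0.82. GARS, for glycine, rose to 784 and 871 CPM in clofazimine libraries, against 367 and 272 CPM in untreated libraries, and SARS, for serine, by 1.25 on the log2 scale (edgeR adjusted p 1.3e-06 and 1.9e-06). On library totals 1 gene of this list fell. The amino acid supply targets had 9 of 18 higher, 1 lower and 8 not called, at a median of 0.41. ASNS, the asparagine synthetase, rose to 37.6 and 34.0 CPM in clofazimine libraries, against 5.13 and 3.40 CPM in untreated libraries (3.07 ± 0.19, SE, edgeR adjusted p 1.8e-09). SLC3A2, the heavy chain of several amino acid exchangers, rose by 1.29 on the log2 scale (adjusted p 6.8e-06). The gene that fell, named after its values were seen, was ALDH1L2, a mitochondrial folate enzyme, at 1.24 and 1.90 CPM in clofazimine against 8.73 and 5.60 CPM in untreated libraries. The count that fell was 3 on library totals, 3 without untreated replicate 2 and 2 without clofazimine replicate 2.

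Signalling and survival targets of ATF4 and CHOP had 12 of 20 genes higher, 3 lower and 5 not called, at a median of 0.60. Over all genes, 29.5% were higher and 30.4% lower. FGF21, a liver hormone, rose to 12.3 and 15.5 CPM in clofazimine libraries, against 2.62 and 0.906 CPM in untreated libraries (2.98 ± 0.31, SE, edgeR adjusted p 6.8e-07), with 3.91 without untreated replicate 1 and 2.39 without untreated replicate 2. BBC3, which encodes the pro-apoptotic PUMA, rose by 2.35 on the log2 scale (adjusted p 5.1e-10). TXNIP, which binds thioredoxin and limits glucose uptake, fell to 32.3 and 32.5 CPM in clofazimine libraries, against 457 and 423 CPM in untreated libraries (-3.76 ± 0.14, edgeR adjusted p 4.4e-12). BMF, another pro-apoptotic gene, fell by 2.25 on the log2 scale (adjusted p 1.1e-08), and the third that fell was VLDLR, named afterwards, at -1.58.

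**Figure D4:**
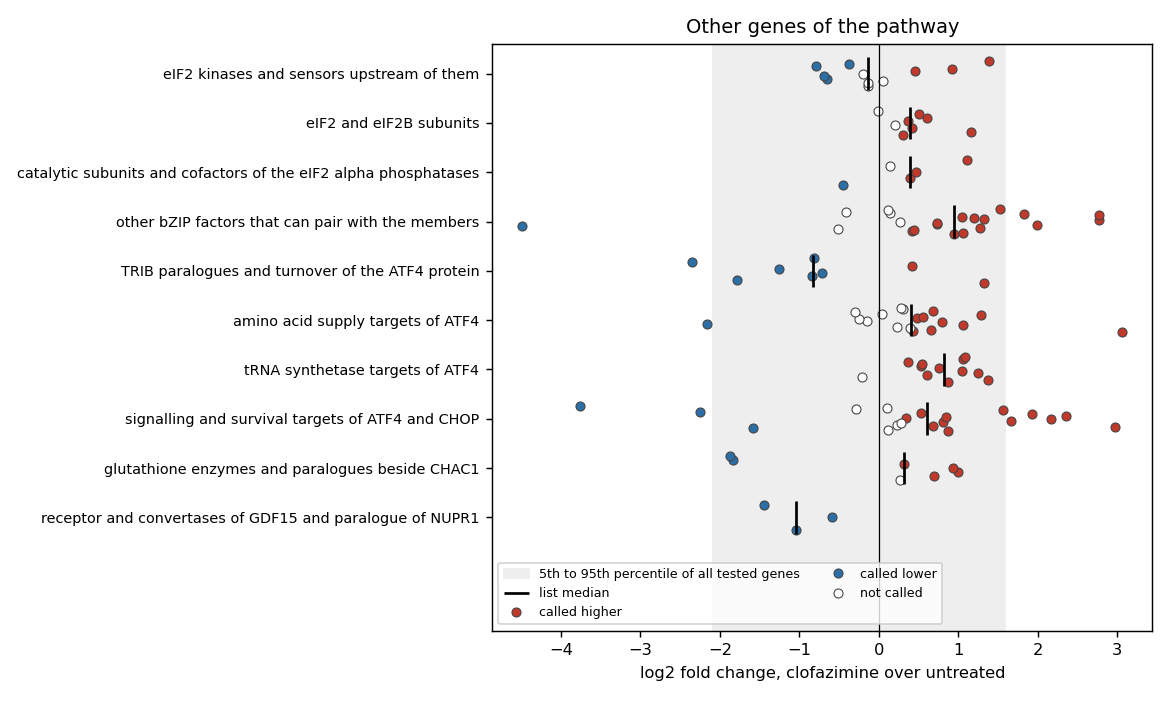
Log2 fold change of clofazimine over untreated for single genes of 10 lists (red called higher, blue called lower, white not called at an adjusted p of 0.05), with a black bar at each list's median and grey from the 5th to the 95th percentile of all tested genes. Genes of the tRNA synthetase list, XPOT included, lie mostly right of 0 within the grey band, while 6 of the 8 TRIB and turnover genes lie left of 0.

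Around CHAC1, a list of glutathione enzymes and paralogues had 4 of 7 genes higher and 2 lower, against 29.5% and 30.4% of all genes. CHAC2, its paralogue, had 6.995 and 11.7 CPM in clofazimine against 8.61 and 7.08 CPM in untreated libraries (0.27 ± 0.23, SE, edgeR adjusted p 0.34). The CHAC2 value turned to -0.53 with the exon length and GC correction, where it passed the threshold (adjusted p 0.030), and to -0.15 without clofazimine replicate 2, while it passed at 0.60 without clofazimine replicate 1 (adjusted p 0.028), so no direction can be given. GCLC and GCLM, the subunits of the rate-limiting enzyme of glutathione synthesis, rose by 1.00 and 0.93 on the log2 scale (edgeR adjusted p 3.1e-06 and 1.5e-05), with GCLM at 0.62 under the exon length and GC offset. GGT1, which breaks down extracellular glutathione, fell to 6.06 and 7.08 CPM in clofazimine libraries, against 18.4 and 28.5 CPM in untreated libraries (edgeR adjusted p 1.8e-06). GGACT, named afterwards and not an enzyme of glutathione itself, was at -1.87.

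Around GDF15, all 3 tested proprotein convertases fell. That count was 2 with DESeq2 size factors, the DESeq2 Wald test, no filter, the replicate block or the exon length and GC offset. It was also lower without untreated replicate 1, untreated replicate 2 or clofazimine replicate 1. FURIN fell to 259 and 231 CPM in clofazimine libraries, against 471 and 542 CPM in untreated libraries (-1.05 ± 0.13, SE, edgeR adjusted p 5.8e-06), and PCSK6 by 1.45 on the log2 scale (adjusted p 8.3e-07), at -0.90 with the exon length and GC offset. PCSK5, named afterwards, was at -0.59 (adjusted p 0.046). The GDF15 receptor gene GFRAL and the NUPR1 paralogue NUPR2 were at 0 counts in all 4 libraries, and the receptor's partner RET had at most 1 count in any library.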

How the data were processed

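Poly(A) RNA from 2 clofazimine and 2 untreated libraries of MHCC97-H cells was analysed from whole-number gene counts deposited by the authors, with 58735 Ensembl identifiers and no normalization. Reads were trimmed with fastp and the build was GRCh38, per the submitters' processing notes, while the aligner, counter, annotation and strand setting are not given in the sources used here. Symbols, exons and coordinates came from GENCODE 29 and promoter windows from RefSeq (GRCh38.p14).

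Genes were filtered with filterByExpr (minimum count 10, minimum total 15), scaled by TMM and tested with edgeR 4.0.16 in R 4.3.3 (glmQLFit and glmQLFTest) on 2 residual degrees of freedom. P-values were adjusted by Benjamini-Hochberg over 16388 genes at a threshold of 0.05, and the biological coefficient of variation was 9.91%. The fit was run on simulated counts with 200 changed genes, which cannot speak for data where 59.9% of genes were called. Alternatives were DESeq2 1.42.0 (size factors and Wald test), limma-voom (limma 3.58.1), library totals, 2 other filters, a replicate block, an offset for exon length and GC content (mgcv 1.9.3), and leaving out each library. A leave-out gives one group a lone library, assumed to vary like the other group.

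The 10 genes and the 13 lists were chosen with earlier results of these data known. From each pathway list the text names the 2 genes that rose most and the 2 that fell most. These were taken among genes called with a mean of at least 5 CPM and groups that do not overlap. TRIB1, TRIB2, CHAC2 and the 4 eIF2 kinases are named in any case. Other pathway names are marked, except BATF, XPOT, MARS, GFRAL, NUPR2 and RET. In the marker and RNA quality lists, names beyond ALB and AFP fall outside this rule and are not marked. Replicates differed by more than counting noise (chi-square per degree of freedom 13.1 in clofazimine and 6.40 in untreated libraries). Each library was counted as a sample, but this scatter may be technical and does not show that replicates were separate cultures.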

Additional observations from a re-analysis of the deposited data

How the results depend on the processing

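Each of the 10 genes kept its direction in all 12 alternatives. Library totals without TMM moved the median of all genes by -0.17 on the log2 scale. On them the count of eIF2 and eIF2B subunits that rose was 3 in place of 6, of TRIB and turnover genes 1 in place of 2, and of hepatocyte markers and of markers of other cell types 0 in place of 1 each, while the amino acid targets that fell numbered 3 in place of 1 and the tRNA synthetase targets 1 in place of 0. Hepatocyte markers that rose numbered 0 with no filter and 2 with the exon length and GC offset. Over the 4 leave-outs, rises numbered 2 to 6 for eIF2 and eIF2B, 1 to 3 for the phosphatase list, 1 to 2 for the TRIB list, 0 to 1 for hepatocyte markers, 0 to 1 for other cell types and 3 to 5 for the RNA quality list, and falls 0 to 1 for the phosphatase list and 1 to 3 for amino acid supply. EIF2AK3 turned to -0.12 on library totals and ran from -0.0021 (without untreated replicate 1) to 0.097 over the leave-outs. CHAC2 turned to -0.53 with the offset and ran from -0.15 (without clofazimine replicate 2) to 0.60 over the leave-outs. The cause was not tested. Replicate numbers are shared across groups, and the deviations of same-numbered libraries correlated at -0.046 over 16388 genes. A group of 2 libraries gives a single difference per gene, so this value cannot decide whether same-numbered libraries were paired. With the replicate block 9605 genes were called, against 9811 without it. With 2 libraries a group, small changes and genes near the floor of 3 counts are poorly resolved.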

Other observations

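Per kb of exon, the other transcription factors and effectors stood in a different ratio to ATF4 in the 2 groups. ATF3 was at 0.427 and 0.345 times ATF4 in the clofazimine libraries, against 0.0199 and 0.0174 times in the untreated libraries. DDIT3 was at 0.529 and 0.545 times ATF4 in the clofazimine libraries, against 0.0803 and 0.0586 times in the untreated libraries. CEBPB reached 1.07 and 1.15 times ATF4 in the clofazimine libraries, against 0.550 and 0.593 times in the untreated libraries. TRIB3 was at 0.914 and 0.942 times ATF4 in the clofazimine libraries, against 0.416 and 0.282 times in the untreated libraries. CHAC1 ran the other way, at 0.00942 and 0.00822 times ATF4 in the clofazimine libraries, against 0.0781 and 0.0510 times in the untreated libraries. The size of each ratio depends on the length used, which is the same in both groups. Per kb of the shortest coding transcript, the clofazimine means were 1071 for ATF3, 692 for TRIB3, 589.7 for ATF4 and 369 for CEBPB CPM per kb, so ATF3 and TRIB3 stood above ATF4 and CEBPB below it. These ratios use the same counts as the levels above and carry no test.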
